A study of Bos taurus with 18 samples.

Results

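The data described here are RNA sequencing libraries of epithelial cells (bEECs) and stromal cells (bESCs) of the bovine endometrium, taken from endometrium-on-a-chip devices that received vehicle alone. They are 6 of the 18 libraries of the series and were chosen by their labels: 3 vehicle control (VC) libraries of bEECs and 3 VC libraries of bESCs, each given PBS for 24 h. The other 12 libraries came from devices that received a recombinant bovine protein, rbCAPG or rbPDI, in the medium. The cells were primary cultures from the endometrium of 3 late-luteal uterine tracts collected at an abattoir. A device was seeded with the bEECs and bESCs of a single animal, on opposite faces of a porous glass membrane. The labels number the biological replicates 1, 2 and 3 in both cell types, and libraries of equal number were taken to be those of the same animal, which no source states outright. bEECs lay under the membrane in flowing medium and bESCs lay above it in a static chamber. The bEECs were at an earlier passage and were seeded in larger number. These conditions went with the cell type in every device, so cell type, flow, passage and seeding cannot be told apart in the differences below.

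The endometrium is a lining epithelium over a connective tissue stroma. Its epithelial cells are joined by tight junctions, carry mucins on their apical face and secrete into the uterine lumen the fluid that feeds the conceptus before implantation. Its stromal cells are fibroblast-like, make the collagens, proteoglycans and basement membrane components around them, and exchange signals with the epithelium above. The comparison asks how the transcripts of the 2 cell types differed when no conceptus protein was given. Only genes whose identifier the study's lists pair with a symbol are named. These are 190 genes, which the study listed for a response to rbCAPG in at least 1 cell type, using the same VC libraries. They are therefore not a random sample of genes.

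Total counts ran from 20488416 to 43068216 in the 6 libraries, with bESC replicate 1 the lowest, and 16698 to 18168 genes had more than 3 counts. Levels are given as CPM, the counts scaled to library size with TMM factors. They compare a gene between libraries, and not 1 gene with another, since CPM also grows with transcript length. On the 500 most variable genes, the first principal component held 96.3% of the variance, with the bEEC libraries at -70.5 to -68.2 and the bESC libraries at 66.1 to 71.6. The second component held 1.31%. Spearman's correlation of log2 CPM across genes was 0.958 to 0.981 between libraries of the same cell type and 0.765 to 0.822 between the cell types, with genes not being independent replicates.

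The cell types differed in a large share of their transcripts, in both directions. Of 17931 genes tested, 6898 (38.5%) were called, at an adjusted p-value under 0.05 by edgeR's quasi-likelihood test and an absolute log2 difference above 1. Of these, 3515 (19.6%) were higher in bEECs and 3383 (18.9%) were higher in bESCs. The 3 libraries of one cell type all lay above the 3 of the other for 10182 genes (56.8%). The median log2 difference, bEEC minus bESC, was 0.02 over all tested genes, and the median absolute difference was 0.89. Among the called genes the median was 2.49 for those higher in bEECs and -2.72 for those higher in bESCs (2.19 and -2.38 with genes at 3 counts or fewer in a cell type set to their bound against 3 counts). By the fitted values, the largest differences were more often on the epithelial side. By more than 7 on the log2 scale, 484 genes were higher in bEECs and 162 were higher in bESCs. In 763 of the genes higher in bEECs no bESC library had more than 3 counts, and in 528 of those higher in bESCs no bEEC library had more. A fitted value can exceed the bound in such genes, as in AIF1 (2891-fold fitted, at least 119.6-fold by the bound). The 484 and 162 were not recounted with the bounds. For 4118 genes (23.0%) the 95% interval of the log2 difference lay within 1 either way, so that a 2-fold difference was outside it, and 6915 genes were neither called nor bounded in this way. Without animal 2 the bounded genes numbered 2606. In bulk libraries, a gene's level can be low because fewer cells expressed it or because each cell held less of its RNA, and these cannot be told apart.

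**Figure D1:**
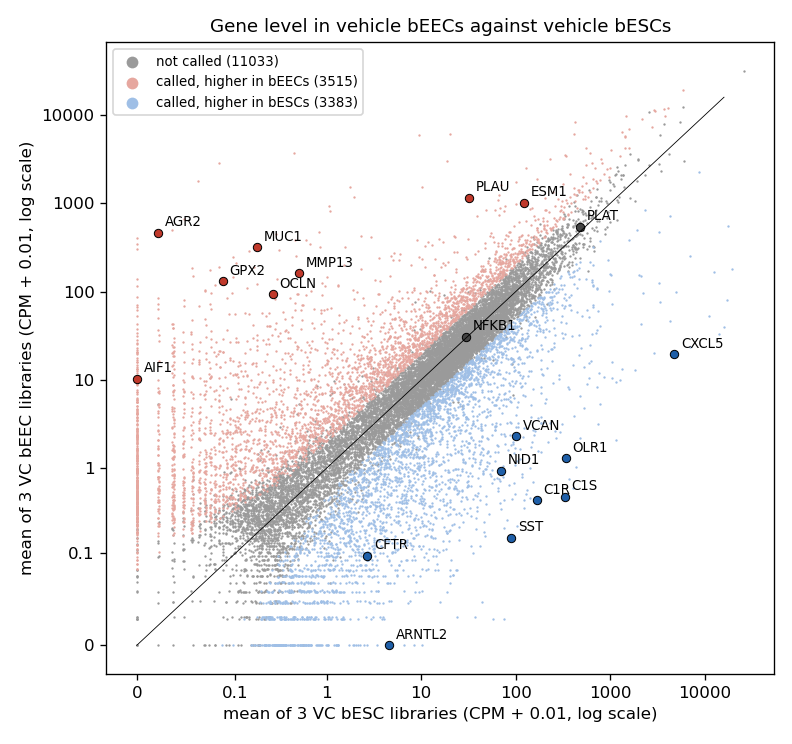
Mean CPM of the 3 VC bEEC libraries (vertical axis) against the mean of the 3 VC bESC libraries (horizontal axis), both on a log scale after adding 0.01, for the 17931 genes tested. Pale red and pale blue points are the 3515 and 3383 genes called higher in bEECs and in bESCs, grey points were not called, and 19 genes with a symbol are marked. AGR2 and AIF1 lie at the left edge, where bESCs had almost no counts, ARNTL2 lies at the bottom edge, and PLAT and NFKB1 lie near the line of equal level.

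Of the 190 genes with a symbol, 131 (68.9%) were called, 48 higher in bEECs and 83 higher in bESCs, beside the 38.5% of all tested genes. The groups did not overlap for 126 of the 131, beside 6690 of the 6898 called genes, and the difference had the same sign within all 3 animals for 129, beside 6792 of the 6898. Genes higher in bESCs outnumbered those higher in bEECs both among the 138 genes listed for bEECs alone (64 against 34) and among the 43 listed for bESCs alone (19 against 11). The median log2 difference of the 190 was -0.82. None of the 12 gene lists used below is therefore a neutral sample of its pathway.

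The markers named for each cell type went with the labels. They were chosen with earlier results of these data known, so they are no independent check of the labels. The 6 epithelial markers were all called higher in bEECs, as were 19.6% of all tested genes. The 6 stromal markers were all called higher in bESCs, as were 18.9%. The groups did not overlap for any of the 12, beside 56.8% of all tested genes. The 6 epithelial markers are part of a list of 15 genes described below. In that list SH3RF2 was higher in bESCs and 3 genes were not called, so the full agreement depends on which members were named as markers. Summed over the list, the epithelial markers ran from 467 to 699.7 CPM in bEECs and from 8.80 to 13.0 CPM in bESCs. The stromal markers ran from 10.9 to 22.1 CPM in bEECs and from 285 to 326 CPM in bESCs.

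OCLN encodes occludin, a tight junction protein. Its level was 85.6, 105 and 89.3 CPM in the bEECs of animals 1, 2 and 3, and 0.308, 0.227 and 0.257 CPM in their bESCs. The bEEC libraries lay close together and far above all bESC libraries, a log2 difference of 8.48 ± 0.59 (SE, adjusted p = 1.62e-08). MUC1, a membrane-bound mucin of the apical surface, was at 276, 443 and 236 CPM in bEECs and at 0.0881, 0.124 and 0.321 CPM in bESCs. This was a 1649.9-fold difference (log2 10.69 ± 0.48, adjusted p = 2.83e-10). RBM47, an RNA-binding protein of epithelia, was 195-fold higher in bEECs, and HNF4G, a nuclear receptor, was 44.4-fold higher. The cadherin CDH26 and the integrin activator FERMT1 (kindlin-1) differed far less. CDH26 was at 18.3, 26.7 and 20.6 CPM in bEECs against 3.88, 2.97 and 3.00 CPM in bESCs (6.70-fold, adjusted p = 2.67e-05). FERMT1 was at 20.3, 16.1 and 17.0 CPM against 7.66, 5.96 and 4.28 CPM (2.99-fold, adjusted p = 0.000986), so the stromal libraries held transcripts of both.

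On the stromal side, VCAN, which encodes the large proteoglycan versican, was at 1.72, 3.23 and 1.94 CPM in bEECs and at 90.3, 113.3 and 102 CPM in bESCs. The difference was 44.3-fold (log2 -5.47 ± 0.57, adjusted p = 1.06e-06). HAND2, a transcription factor of endometrial stroma that mediates progesterone's action there, was at 0.0604, 0.192 and 0.0897 CPM in bEECs and at 6.61, 5.05 and 4.28 CPM in bESCs. It took few reads in both cell types and was 45.5-fold higher in bESCs (adjusted p = 1.24e-07). ZEB1, a repressor of epithelial genes, was 15.2-fold higher in bESCs. EMILIN1, an elastic fibre glycoprotein, was 27.8-fold higher, PCOLCE2, an enhancer of procollagen processing, was 20.8-fold higher, and COL6A1, a collagen VI chain, was 10.5-fold higher.

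Markers of other cell types did not all stay near 0. Of the 7 immune markers, AIF1, CXCR4 and PIK3R5 were higher in bEECs and the other 4 were not called. This is 42.9% called, beside 68.9% of the 190 and 38.5% of all tested genes. The immune list summed to 29.9 to 44.1 CPM in bEECs and 7.31 to 28.2 CPM in bESCs. AIF1, a calcium-binding protein best known from macrophages, had 133, 443 and 424 counts in bEECs and 0 counts in all 3 bESC libraries, a difference of at least 119.6-fold against a floor of 3 counts per library (adjusted p = 5.33e-08). The monocyte receptor CD14 was at 8.70, 6.82 and 5.80 CPM in bEECs and 4.80, 18.3 and 4.35 CPM in bESCs, so the groups overlapped (log2 -0.37 ± 0.50, adjusted p = 0.559). The log2 differences of CD83 and SLAMF8 were 0.47 ± 0.58 and -0.56 ± 0.57, and SLAMF8 was called without animal 1 (-1.61, adjusted p = 0.0375). GPR84 had 0, 0 and 2 counts in bEECs and 6, 26 and 2 counts in bESCs, a ratio of 14.1 with a 95% counting interval of 3.62 to 121. It was called without the bESCs of animal 3 (adjusted p = 0.0284) and with the animal as a block (adjusted p = 0.0254).

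Of the 4 endothelial markers, ESM1 was higher in bEECs, SELP and TEK were higher in bESCs, and CLEC1A was not called. Calls covered 75% of them, beside 68.9% of the 190 and 38.5% of all tested genes. The list summed to 757 to 1287 CPM in bEECs and 252 to 340 CPM in bESCs, most of it from ESM1 and SELP. TEK, the angiopoietin receptor, had 1 to 4 counts in the bEEC libraries and 4 to 23 in the bESC libraries (log2 -2.05 ± 0.72, adjusted p = 0.028). It was not called in 6 of the 9 fits that left out libraries, in which its difference was -2.22 to -1.59. CLEC1A had 0 counts in bEECs and 3, 1 and 9 counts in bESCs, and was called with the animal as a block (adjusted p = 0.0496). In contrast, ESM1, a secreted proteoglycan first described in endothelium, was at 1284, 754 and 1006 CPM in bEECs and at 136, 183 and 44.5 CPM in bESCs (8.35-fold, adjusted p = 0.00033). SELP, the adhesion molecule P-selectin, was at 2.96, 3.62 and 1.47 CPM in bEECs and at 116, 156 and 214 CPM in bESCs (60.4-fold, adjusted p = 1.07e-05). ESM1 and SELP were thus higher in opposite cell types, though ESM1 still had 44.5 to 183 CPM in bESCs. TEK stayed below 0.5 CPM in all 6 libraries. Whether other cells took part in these values was not tested.

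**Figure D2:**
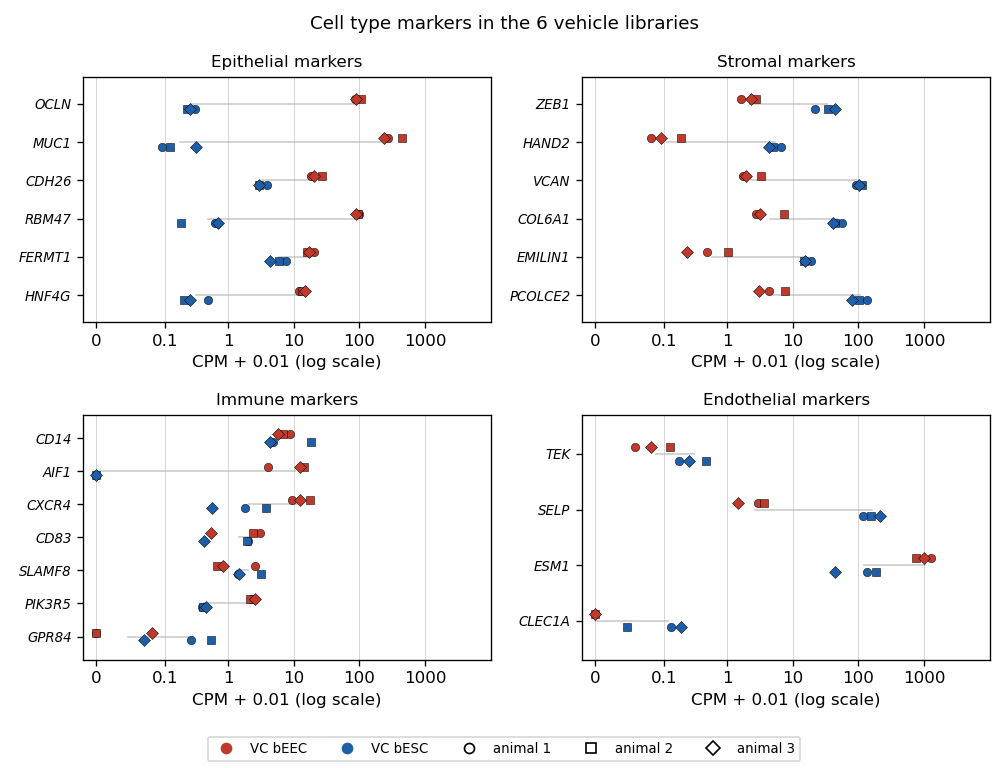
CPM of the 23 markers in each of the 6 VC libraries (horizontal axis, log scale after adding 0.01), in panels for epithelial, stromal, immune and endothelial markers. Red symbols are bEECs, blue symbols are bESCs, the symbol's shape gives the animal, and grey lines join the group means. The 12 epithelial and stromal markers separate fully by cell type, while CD14, CD83, SLAMF8 and GPR84 overlap.

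Genes of each cell type were also chosen in the 12 protein-treated libraries and their levels were read in the VC libraries. They were the 100 most abundant genes called with both proteins at a log2 difference above 5, from 734 genes that qualified for bEECs and 343 for bESCs. The 100 epithelial genes summed in the VC bESCs of animals 1, 2 and 3 to 0.601%, 0.351% and 0.344% of their mean level in VC bEECs (0.432% ± 0.146, SD, n = 3). The 100 stromal genes summed in the VC bEECs to 0.397%, 0.990% and 0.596% of their level in VC bESCs (0.661% ± 0.302, SD, n = 3). The limit on the log2 difference, in devices of the same animals, by itself kept these shares low, so they describe the chosen genes and measure no purity.

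AGR2 had the largest difference of the named genes. It encodes a disulfide isomerase of the endoplasmic reticulum of mucus-secreting epithelia, and it had 6722, 26595 and 11354 counts in bEECs and 0, 1 and 0 counts in bESCs. The ratio of pooled CPM was 53851, with a 95% counting interval of 9665 to 2127060 that rests on 1 stromal count (adjusted p = 2.96e-08). GPX2, a glutathione peroxidase of epithelia, was at 117, 163 and 114 CPM in bEECs and had 2, 6 and 0 counts in bESCs (log2 10.84 ± 0.68, adjusted p = 6.23e-09). GPX3, the secreted glutathione peroxidase, was 30.0-fold higher in bEECs, at 15.7, 70.1 and 58.5 CPM against 2.25, 0.970 and 1.67 CPM, with animal 1 the lowest of the bEECs. Both glutathione peroxidases of the list were thus higher in bEECs.

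Others of the 12 largest epithelial differences were in regulators and enzymes. SCIN, an actin-severing protein of secretory cells, was at 118, 126 and 172 CPM in bEECs and below 1 CPM in bESCs (log2 8.81 ± 0.60). CYP24A1, the enzyme that inactivates vitamin D, varied among animals in bEECs, at 2.15, 11.1 and 4.94 CPM, against 1 count over the 3 bESC libraries (ratio 703, counting interval 126 to 27807). STX19, a syntaxin of the secretory pathway, was 117-fold higher. PLEKHS1, a pleckstrin homology domain protein, had 169, 214 and 333 counts in bEECs, and HTR1E, a serotonin receptor, had 55, 122 and 85, each against 1 count over the 3 bESC libraries. The counting intervals of their ratios began at 154 and 56.2. MMP13, a collagenase, was at 134, 144 and 205 CPM in bEECs and had 0, 73 and 0 counts in bESCs, so its whole stromal signal came from animal 2.

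Of the 12 largest stromal differences, ARNTL2 was the most complete. It encodes a clock transcription factor and had 0 counts in all bEEC libraries and 119, 237 and 169 counts in bESCs, at least 49.7-fold higher (adjusted p = 3.26e-07). SST, the peptide hormone somatostatin, was at 0, 0.256 and 0.209 CPM in bEECs and 83.7, 156 and 30.4 CPM in bESCs (log2 -9.16 ± 0.98, adjusted p = 1.3e-06). The bESC libraries differed among themselves in SST by several fold, yet each lay far above the bEEC libraries. FAM110B, VSTM4, TMEM176A and TMEM176B were 143-fold, 82.6-fold, 90.7-fold and 83.4-fold higher in bESCs. TMEM176A and TMEM176B are neighbours in the RefSeq gene order and encode related membrane proteins.

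**Figure D3:**
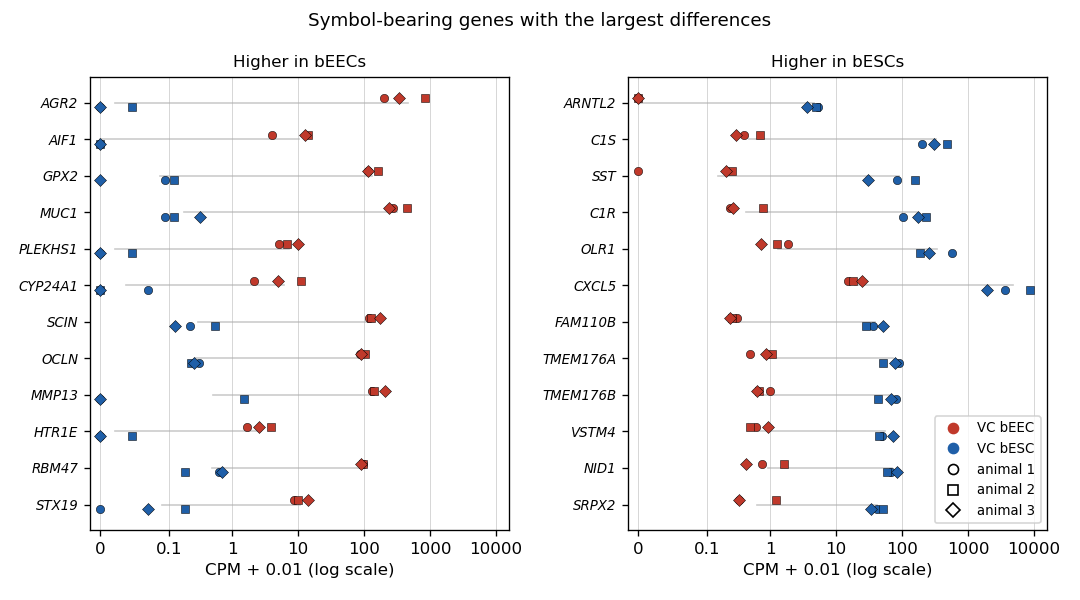
CPM in each VC library (horizontal axis, log scale after adding 0.01) of the 12 called genes with a symbol that had the largest log2 difference in each direction and groups that did not overlap. Red symbols are bEECs, blue symbols are bESCs, the symbol's shape gives the animal, and grey lines join the group means. AGR2, AIF1, PLEKHS1, CYP24A1 and HTR1E had at most 1 count in any bESC library, and ARNTL2 had none in bEECs.

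Epithelial junction, surface and secretory genes were mostly higher in bEECs: 11 of 15 were (19.6% of all tested genes), 1 was higher in bESCs and 3 were not called, with a list median of 5.15 on the log2 scale beside 0.02 over all tested genes. The adaptor STAP2 was typical, at 118, 112.9 and 162 CPM in bEECs and 4.85, 3.42 and 2.83 CPM in bESCs (log2 5.15 ± 0.33, adjusted p = 6.74e-09). The member that went the other way was SH3RF2, a scaffold and ubiquitin ligase. It was at 3.41, 1.95 and 1.82 CPM in bEECs and 22.9, 14.4 and 32.3 CPM in bESCs (9.67-fold, adjusted p = 1.1e-06). The uncalled members were the mucin-type glycosyltransferase GALNT7 (log2 0.90 ± 0.26, under the limit of 1 with an adjusted p of 0.00881), the junction regulator INAVA (0.70 ± 0.51) and GSDMA (-1.70 ± 0.77), a gasdermin with 0 to 14 counts per library. GALNT7 passed the limit without animal 3 (1.24, adjusted p = 0.0142), GSDMA was called without the bEECs of animal 3 (-2.59, adjusted p = 0.044), and the protease TMPRSS6 lost its call without animal 2 (adjusted p = 0.105).

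All 12 genes of the extracellular matrix and its receptors were higher in bESCs, beside 18.9% of all tested genes and 83 of the 190. The list median was -4.60, beside -0.82 for the 190. NID1, nidogen of the basement membrane, had the largest difference, at 0.755, 1.60 and 0.419 CPM in bEECs and 67.7, 59.9 and 84.9 CPM in bESCs (76.6-fold, adjusted p = 6.25e-09). ITGA1, the collagen-binding integrin chain, was at 8.58, 9.41 and 5.50 CPM in bEECs and 267, 267 and 565 CPM in bESCs (46.8-fold, adjusted p = 1.46e-08). SRPX2, a secreted sushi-repeat protein, was 67.7-fold higher. HAS2, which makes hyaluronan, was 44.1-fold higher on small counts, with 5, 1 and 0 in bEECs and 100, 176 and 28 in bESCs. The smallest difference of the list was in ADAMTSL5, 2.49-fold (adjusted p = 0.00264), which fell to a log2 difference of -0.92 and was no longer called without animal 3 (adjusted p = 0.106).

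The mesenchymal transcription factors and growth factor or guidance receptors were higher in bESCs in 7 of 8 cases. The same direction was called for 18.9% of all tested genes and for 83 of the 190. Their median was -3.91, beside -0.82 for the 190. ROR1, a Wnt5a receptor, was at 0, 0.288 and 0.150 CPM in bEECs and 5.07, 6.97 and 9.13 CPM in bESCs (47.8-fold, adjusted p = 5.66e-06). FGFR1, a receptor for fibroblast growth factors, was at 3.60, 5.03 and 4.76 CPM against 51.8, 50.2 and 57.2 CPM (11.9-fold, adjusted p = 1.21e-06). The 3 bESC libraries lay close together. NRP2, a co-receptor for semaphorins and vascular endothelial growth factor, was the exception at 8.34, 6.18 and 5.92 CPM in bEECs and 3.00, 2.58 and 3.26 CPM in bESCs (2.31-fold higher in bEECs, adjusted p = 0.00228, and 0.0503 without animal 2). UNC5B, a netrin receptor, was the smallest of the 7, with overlapping groups and a log2 difference of -1.38 ± 0.46 that was -0.63 (adjusted p = 0.244) without the bESCs of animal 3. It also lost its call in 4 other fits that left out libraries.

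The matrix proteases and the plasminogen system split between the cell types, with 3 of 9 genes higher in bEECs, 3 higher in bESCs and 3 not called. Their called share was 66.7%, beside 68.9% of the 190 and 38.5% of all tested genes. Plasminogen activators cut plasminogen into plasmin, a protease of broad range. PLAU, the urokinase activator, had 1106, 1013 and 1357 CPM in bEECs and 27.0, 45.3 and 24.0 CPM in bESCs (36.1-fold, adjusted p = 1.18e-06). Its receptor PLAUR was at 459.7, 553 and 637 CPM in bEECs and 127, 92.3 and 70.8 CPM in bESCs (5.70-fold, adjusted p = 0.000318). Activator and receptor thus stood on the epithelial side without overlap. PLAT, the tissue-type activator, was at 315, 918 and 399.7 CPM in bEECs and 334, 304 and 803 CPM in bESCs. Its groups overlapped and its direction differed among animals (log2 0.18 ± 0.46, 95% interval -0.79 to 1.15, turning to -0.02 with library totals alone). By read count, PLAU, IER3, ESM1, PLAUR and PLAT took the most reads of the named genes in bEECs, and CXCL5, STOM, PLAT and ITGA1 were among those that took the most in bESCs.

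Among the proteases proper, MMP13 was the largest epithelial difference. ADAM19, a membrane-bound metalloprotease, was 30.5-fold higher in bESCs and ADAMTS5, an aggrecanase, was 22.5-fold higher. MMP1 was at 37.7, 27.8 and 25.0 CPM in bEECs and 3.92, 49.97 and 10.6 CPM in bESCs, with an overlap that came from animal 2 (log2 0.48 ± 0.59). It was called without animal 2 (2.07, adjusted p = 0.0106). CST3, the cysteine protease inhibitor cystatin C, was at 150.2, 850.1 and 294 CPM in bEECs and 256, 237 and 122 CPM in bESCs (log2 1.07 ± 0.56, adjusted p = 0.123), and was called without animal 1 (1.66, adjusted p = 0.0433).

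Complement and scavenger genes gave some of the largest stromal differences. C1S and C1R encode the proteases of the first complement component and are neighbours in the RefSeq gene order. C1S was at 0.393, 0.704 and 0.299 CPM in bEECs and 204, 481 and 307 CPM in bESCs (708-fold, adjusted p = 3.01e-09). C1R was at 0.242, 0.768 and 0.269 CPM against 103, 231 and 171 CPM (395-fold, adjusted p = 8.89e-09). In both genes animal 2 was the highest on each side of the membrane. OLR1, the scavenger receptor LOX-1, was at 1.87, 1.28 and 0.718 CPM in bEECs and 575, 184 and 259 CPM in bESCs (262-fold, adjusted p = 4.92e-08). PGLYRP3, a peptidoglycan recognition protein, was higher in bEECs on 4, 15 and 5 counts against 1, 0 and 0, and was not called without animal 2 (adjusted p = 0.114).

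Of the 11 chemokines and chemokine receptors, 2 were higher in bEECs, 4 were higher in bESCs and 5 were not called. The share called was 54.5%, beside 68.9% of the 190 and 38.5% of all tested genes, and the median of -0.81 was close to the -0.82 of the 190. The 4 on the stromal side were all CXC chemokines that attract neutrophils. CXCL5 was at 15.4, 18.3 and 25.1 CPM in bEECs and 3665, 8609 and 1946 CPM in bESCs (242-fold, adjusted p = 2.55e-07). CXCL2, CXCL3 and GRO1 were 51.5-fold, 21.4-fold and 14.8-fold higher in bESCs, and in each the bESCs of animal 3 were the lowest. These 3 genes are adjacent in the RefSeq gene order and alike in sequence, and the reads were divided among matching genes, so their separate values are uncertain. CXCL16, a membrane-anchored chemokine, was 2.93-fold higher in bEECs (adjusted p = 0.003, and 0.0984 without animal 2), and CXCR4, the receptor for CXCL12, was 6.34-fold higher (adjusted p = 0.00132).

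CXCL8, another neutrophil chemokine, overlapped between the cell types and was not called. It was at 116, 6.85 and 4.34 CPM in bEECs and 93.9, 114 and 38.5 CPM in bESCs. In animal 1 both cell types were high, while in animals 2 and 3 the bEECs were far below the bESCs. The fit over all libraries gave -0.95 ± 0.98 (adjusted p = 0.441), and without the bEECs of animal 1 it gave -3.87 (adjusted p = 0.00295). In the 6 VC libraries with the animal as a block it was called, at -2.44 (adjusted p = 0.0483), and over all 18 libraries with the block it was not. CCL20 gave 2.02 ± 1.18 on the log2 scale (adjusted p = 0.169), with differences of 2.66, 1.67 and 1.39 within animals 1, 2 and 3. It too was called in the 6 VC libraries with the block (2.35, adjusted p = 0.0205). CCRL2 and CCL5 gave 1.50 ± 0.68 and -0.81 ± 0.64, and CX3CL1 had at most 3 counts in any library. CCRL2 was called without the bESCs of animal 2 (2.81, adjusted p = 0.00897) and CCL5 without those of animal 3 (-1.33, adjusted p = 0.0418).

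Of the 11 cytokines and cytokine receptors, 3 were higher in each cell type and 5 were not called (median -0.24). Called members made up 54.5%, beside 68.9% of the 190 and 38.5% of all tested genes. IL1RN, the antagonist of the interleukin-1 receptor, was at 42.5, 39.5 and 33.8 CPM in bEECs and 1.15, 0.598 and 0.450 CPM in bESCs (55.1-fold, adjusted p = 2.18e-07). TNFSF15, a tumour necrosis factor family ligand, was at 132, 208 and 347 CPM against 6.17, 4.17 and 7.45 CPM (38.6-fold, adjusted p = 1.06e-05). The third was TNFRSF11B, the decoy receptor osteoprotegerin, at 12.6-fold. IL18R1, a chain of the interleukin-18 receptor, was 29.1-fold higher in bESCs and the receptor CD40 was 3.24-fold higher. IL37 was called on 4, 24 and 0 counts in bESCs against 0 in bEECs, and not without animal 2 (adjusted p = 0.237). IL6 was at 134, 179 and 299 CPM in bEECs and 183, 129 and 19.0 CPM in bESCs, and its direction differed among animals (log2 0.89 ± 0.62). IL1R2, TNFRSF9 and IL23A gave -1.67 ± 0.69, -0.99 ± 0.90 and -0.24 ± 0.29, and CSF3 had at most 4 counts in any library. IL1R2 was called without the bESCs of animal 1 (-2.14, adjusted p = 0.00981) and also without those of animal 3 (adjusted p = 0.0366).

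**Figure D4:**
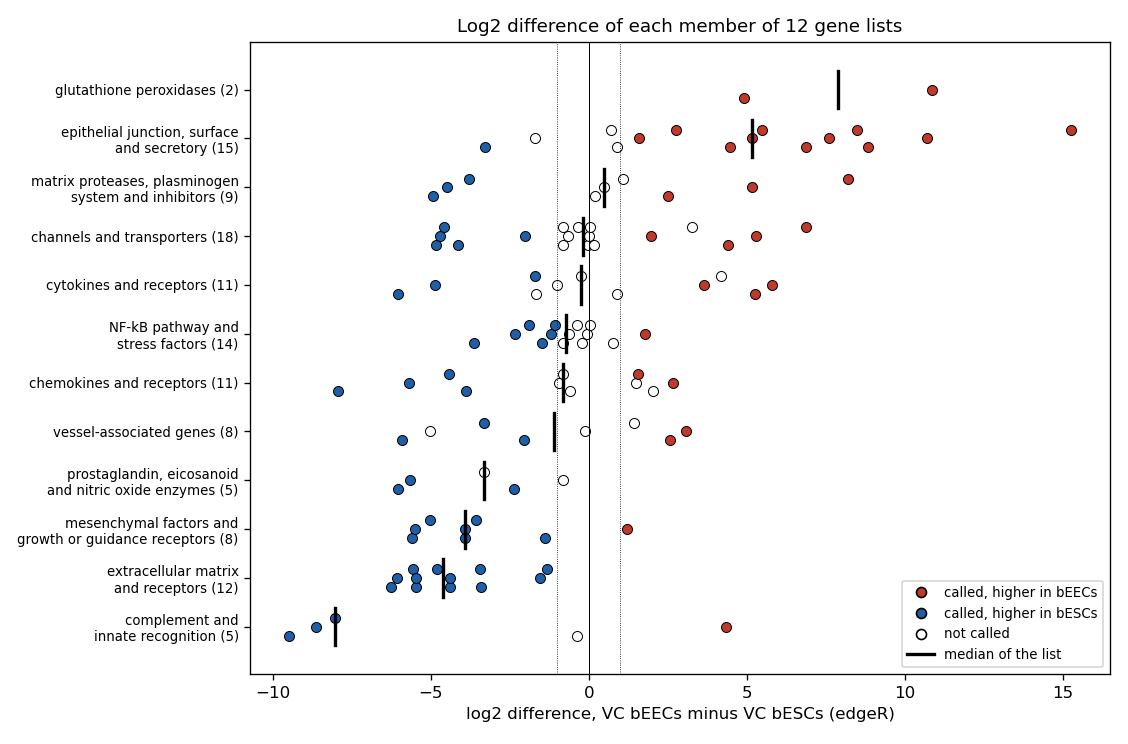
Log2 difference (VC bEECs minus VC bESCs, from the edgeR fit; horizontal axis) of each member of 12 gene lists, ordered by the list median (black bar), with the number of members in brackets. Red and blue points were called higher in bEECs and in bESCs, white points were not called, dotted lines mark a log2 difference of 1 either way, and the vertical offset within a list only separates points. All 12 matrix genes and 7 of 8 mesenchymal genes lie to the left, and 11 of 15 epithelial genes lie to the right and are red.

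The NF-kB pathway turns on inflammatory genes, several of which restrain it in turn. Of 14 genes of the pathway and stress transcription factors, 1 was higher in bEECs, 6 were higher in bESCs and 7 were not called (median -0.73). Thus 50% were called, beside 68.9% of the 190 and 38.5% of all tested genes. An interval inside 1 either way was found for 3 of the 14, beside 23.0% of all tested genes. NFKB1, the p105 and p50 subunit gene, was at 28.0, 33.8 and 30.3 CPM in bEECs and 28.9, 25.3 and 36.3 CPM in bESCs. Its log2 difference was 0.02 ± 0.24 with a 95% interval of -0.48 to 0.52, so a difference of 2-fold was outside the interval. The interferon regulatory factor IRF1 (-0.05 ± 0.27) and the small Maf factor MAFF (-0.23 ± 0.24) were bounded in the same way, and the other uncalled members were not. IER3, an early response gene, was at 725, 996 and 1466 CPM in bEECs and 240.2, 447 and 244 CPM in bESCs (3.42-fold, adjusted p = 0.00127), and missed the threshold without animal 3 (adjusted p = 0.0501). TNFAIP2 had the largest stromal difference of the list at 12.4-fold, followed by the kinase MAP3K8 at 5.05-fold. TNIP1, ZC3H12A, NFKBIZ and the factor CEBPD were 3.67-fold, 2.81-fold, 2.11-fold and 2.31-fold higher in bESCs. NFKBIA, NFKB2, BIRC3 and TNFAIP3 gave -0.81 ± 0.26, -0.64 ± 0.28, -0.37 ± 0.32 and 0.76 ± 0.38. Differences near the limit moved across it when an animal was left out. NFKBIA was called without animal 2 (-1.05, adjusted p = 0.0429), while CEBPD (adjusted p = 0.0615) and NFKBIZ (adjusted p = 0.0729) lost their calls there. Without animal 3 they gave adjusted p-values of 0.0528 and 0.0722.

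Of the 5 prostaglandin, eicosanoid and nitric oxide genes, 3 were higher in bESCs and 2 were not called. This is 60% called, beside 68.9% of the 190 and 38.5% of all tested genes. PTGS2, the inducible cyclooxygenase at the head of prostaglandin synthesis, was at 5.74, 5.70 and 3.80 CPM in bEECs and 26.5, 36.8 and 14.7 CPM in bESCs (5.11-fold, adjusted p = 0.00194). ALOX12, a 12-lipoxygenase, was at 0.846, 1.41 and 0.778 CPM against 22.1, 105 and 71.7 CPM (65.7-fold, adjusted p = 2.03e-06). The phospholipase receptor PLA2R1 was 50.3-fold higher. PLA2G4A, the phospholipase that releases arachidonic acid and the neighbour of PTGS2 in the RefSeq gene order, was at 22.0, 29.9 and 30.8 CPM in bEECs and 61.9, 61.1 and 24.0 CPM in bESCs (log2 -0.83 ± 0.48, adjusted p = 0.163), and was called without animal 3 (-1.23, adjusted p = 0.043). NOS2 had 17 counts in the bESCs of animal 2 and at most 1 in any other library.

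Several regulators of the cytoskeleton are given singly. FYN, a Src family kinase, was at 1.60, 2.24 and 1.14 CPM in bEECs and 76.0, 131 and 125 CPM in bESCs (66.5-fold, adjusted p = 1.05e-08). EPB41L3 and the microtubule protein MAP1A were 42.2-fold and 37.9-fold higher. LIMD2, 2.08-fold higher in bESCs, overlapped between the groups and lost its call in 6 of the 9 fits that left out libraries, in which its log2 difference was as small as -0.71. CYRIA, a Rac1-binding protein, was 4.50-fold higher in bEECs (adjusted p = 0.00663, and 0.0639 without animal 3). RHOC was at 149.6, 165 and 175 CPM in bEECs and 169, 126 and 106 CPM in bESCs (log2 0.29 ± 0.28), with its interval inside 1 either way.

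Of the 18 channels and transporters, 4 were higher in bEECs, 5 were higher in bESCs and 9 were not called, so 9 of 18 were called beside 38.5% of all tested genes and 68.9% of the 190. The median was -0.18, or -0.02 with genes at 3 counts or fewer in a cell type set to their bound. CFTR, the chloride channel of secretory epithelia, was on the stromal side. It had 3, 3 and 3 counts in bEECs and 40, 94 and 206 counts in bESCs, a ratio of 31.3 with a 95% counting interval of 16.3 to 69.1 (adjusted p = 5.24e-06), and its level was only 1.76 to 4.41 CPM there. SLC14A1, a urea transporter, was at 2.90, 4.35 and 2.33 CPM in bEECs and 51.1, 54.3 and 64.5 CPM in bESCs (17.7-fold, adjusted p = 1.81e-06). STOM, the membrane scaffold stomatin, was at 23.2, 25.7 and 26.5 CPM against 398, 614 and 802 CPM (24.0-fold, adjusted p = 1.67e-07). On the epithelial side, the organic anion transporter SLCO4A1 was 38.9-fold higher and the lipid transporter ABCA3 was 3.94-fold higher. The phosphate transporter SLC17A1 had 8 to 19 counts in bEECs and 0 in bESCs, at least 4.80-fold. SLC5A1, a sodium and glucose transporter, was called on 2, 5 and 0 counts against 0 in bESCs, and no fold is given for counts this low. Its groups overlapped, and it lost its call in 7 of the 9 fits that left out libraries (adjusted p = 0.0644 to 0.284). CACNB3 (0.04 ± 0.28) and SLC2A6 (-0.03 ± 0.31) were bounded within 1 either way, ANO8 gave -0.81 ± 0.38, and ABCC2, ASIC3, GJB6, SLC24A1 and SLC35F3 had at most 25 counts in any library and were not called.

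The vessel-associated genes gave 2 of 8 higher in bEECs, 3 higher in bESCs and 3 not called (median -1.09, or -0.22 with genes at 3 counts or fewer in a cell type set to their bound). Calls covered 62.5% of them, beside 68.9% of the 190 and 38.5% of all tested genes. Besides ESM1, EDN1, the vasoconstrictor endothelin-1, was at 33.8, 42.2 and 35.2 CPM in bEECs and 7.27, 4.62 and 6.94 CPM in bESCs (5.92-fold, adjusted p = 0.000423). ANGPT1, the TEK ligand, was 9.87-fold higher in bESCs on 30 to 143 counts there and 4 to 8 in bEECs. RHOJ was within 1 either way (-0.12 ± 0.37) and RAMP3 had at most 3 counts.

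In all, 13 of the 190 genes had an interval inside 1 either way. BPNT2, a nucleotidase, was the closest to equal, at 56.3, 46.8 and 42.8 CPM in bEECs and 59.3, 39.9 and 46.9 CPM in bESCs (95% interval -0.45 to 0.45). Its neighbour in the RefSeq gene order, FAM110B, was among the 12 largest stromal differences. GPX3 and TNIP1 are likewise neighbours and went in opposite directions.

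The difference was also taken within each animal, between its bEEC and bESC libraries. Over all tested genes, the median range of the log2 difference among the 3 animals was 1.03, and it was 1.26 among the called genes. The sign was the same in all 3 animals for 12220 genes (68.2%) and for 6792 of the 6898 called. Of the 190 genes with a symbol, 9 changed sign among animals and also had a range above 2 on the log2 scale and a mean above 1 CPM in both cell types. They were IL6, CXCL8, MMP1, GSAP, CCL5, SLAMF8, CST3, PLAT and CD14. Other genes changed sign with a narrower range or at a lower level, such as SLC2A6 and IL1R2. The share of all tested genes that met these limits was not taken. Of the 9, IL6 had the widest range, with differences of -0.44, 0.47 and 3.98 in animals 1, 2 and 3. CXCL8 gave 0.30, -4.04 and -3.13, and MMP1 gave 3.25, -0.85 and 1.23. The animal that stood apart differed from gene to gene, being animal 3 for IL6, animal 1 for CXCL8 and animal 2 for CD14 (0.85, -1.42 and 0.41).

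**Figure D5:**
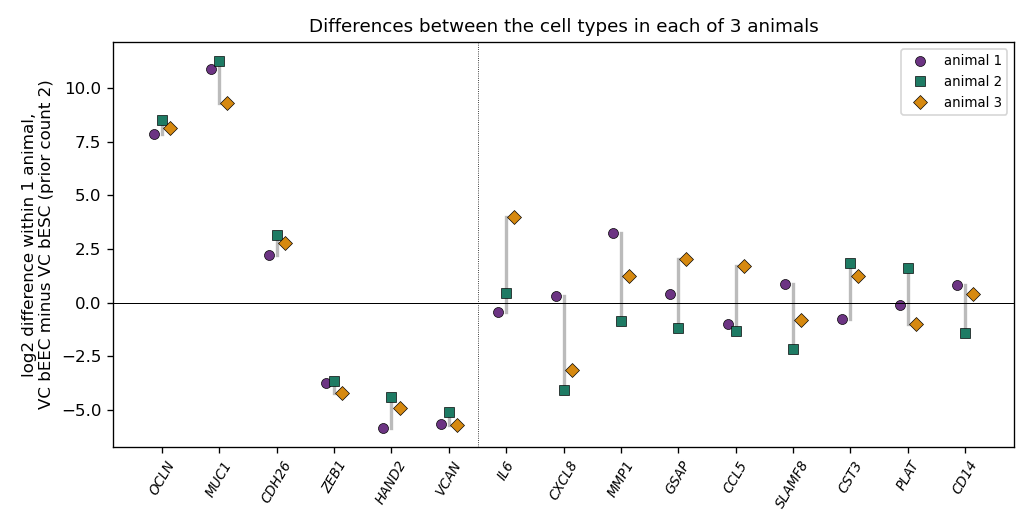
Log2 difference between the VC bEEC and VC bESC libraries of the same animal (vertical axis, log2 CPM with a prior count of 2 scaled to each library), with a symbol per animal and grey bars from the lowest to the highest. Left of the dotted line are the first 3 epithelial and the first 3 stromal markers, which keep their sign in all 3 animals. Right of it are the 9 genes whose difference changed sign among animals with a range above 2 and a mean above 1 CPM in both cell types.

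The direction of the VC difference was also read in the devices that received a protein, which share the 3 animals but none of the 6 libraries. Of the 131 called genes, 124 had the same direction with rbCAPG, of which 106 were called, and 124 had it with rbPDI, of which 105 were called. With rbPDI 1 gene was called in the other direction, CXCL3, at log2 1.302 against -4.42 at VC. With rbCAPG CXCL3 gave 0.37. TEK gave 0.97 and 1.13 in these devices, against -2.05 at VC. These fits ran over all 18 libraries, so their scaling and spread also drew on the VC libraries. The 131 come from genes listed for a response to rbCAPG, and the same count was not taken over all called genes.

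Most called genes carry no symbol in the study's lists. The lowest p-values among them were those of ENSBTAG00000001598 and ENSBTAG00000021838, higher in bEECs by 7.22 ± 0.24 and 8.84 ± 0.30 on the log2 scale, and of ENSBTAG00000032588 and ENSBTAG00000012526, with differences of -8.28 ± 0.37 and -6.86 ± 0.32.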

How the data were processed

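The members and gene lists were chosen with earlier results of these data known. RNA was amplified with a SMART-Seq v4 kit and sequenced in pairs. Per the labels and the study's methods, the authors used Trimmomatic for trimming, STAR for alignment to ARS-UCD1.3 and featureCounts for counting on Ensembl genes, with reads of several matches or overlapping genes divided into fractions. The values deposited by the authors are therefore estimated counts, not normalized. They cover 36075 genes, and 23.6% of values were not whole in the 6 VC libraries. No strand option is stated, so overlapping and antisense genes cannot be separated. 0 columns were left unused.

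Counts were rounded and analysed in R 4.3.3 with edgeR 4.0.16: filterByExpr over the 6 groups, TMM scaling, and the quasi-likelihood F-test with a mean for each group over all 18 libraries (12 residual degrees of freedom). All groups shared 1 estimate of the spread, and no animal block was fitted. The p-values, SEs and intervals given therefore do not use the pairing by animal, except where a block is named. P-values were adjusted by Benjamini-Hochberg over all 17931 genes tested, with calls made below 0.05 for genes whose absolute log2 difference exceeded 1. The SE is the absolute log2 difference divided by the root of F. Where every library of a cell type had 0 counts, the fold is a lower bound against 3 counts per library, which is 0.0921 CPM in bEECs and 0.0861 CPM in bESCs on average and covers counting error only. Where those libraries held 1 to 3 counts at most but not all 0, the ratio of pooled CPM is given with its exact binomial 95% interval for counting error. Principal components used the variance-stabilizing transformation of DESeq2 1.42.0. The procedures were tested on simulated data. Exact permutation of 3 against 3 cannot give a two-sided p under 0.1.

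The study's methods state that each device held cells of 1 animal, and equal biological replicate numbers were taken to mark the same animal. Deviations from the group mean correlated at 0.154, 0.120 and 0.0650 for same-numbered libraries and at -0.109 to -5.98e-05 otherwise. For each gene, deviations cancel out within a cell type, so part of this contrast in sign is built in and it does not settle the pairing. Replicates of a cell type differed far beyond sampling noise, with chi-square over its degrees of freedom from 149.5 to 467.

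Genes were named from the identifier and symbol pairs in the study's lists by this rule: the 12 called genes with the largest difference in each direction whose samples do not overlap, every marker, the 5 with the highest mean CPM in each cell type, and list members by counts, with the largest difference each way and members not called. Other list members shown with values, BPNT2 and the 9 genes given for a change of sign among animals were chosen after their values were seen. The alternatives were other scalings, filters, tests and sample sets, and each library and animal left out in turn. RefSeq gene order (ARS-UCD2.0) was used by symbol only, for neighbours. Coordinates, gene lengths and sequences were not used here. A few genes and 1 gene list are not reported here.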

Additional observations from a re-analysis of the deposited data

How the results depend on the processing

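The calls between the cell types held under most settings. The 6898 calls became 7348 with the animal as a replicate block, 6135 with the 6 VC libraries alone and 5905 with those and the block, 7314 with DESeq2, and 4520 (2175 higher in bEECs) when tested against a log2 difference of 1. In the block fit 6838 calls were shared, all 131 named calls among them, and CLEC1A and GPR84 gained a call. With the 6 VC libraries and the block, CXCL8 and CCL20 gained a call, GPRIN2 lost one and 8 called genes were not tested. Leaving out libraries or animals gave 4816 to 7351 calls, 118 to 132 of them with a symbol. No call shared between the reported fit and any of these alternatives changed direction. Of the 131 named calls, 106 held in every fit that tested them, and 23 lost the call when libraries were left out. The genes bounded within 1 either way numbered 2606 to 3941 when libraries were left out. The first component held 83.6% with all genes. With library totals alone 6765 genes were called, of which 2985 (44.1%) were higher in bEECs, beside 51% in the reported fit. That setting moved the median of all genes by -0.16 and turned PLAT to -0.0181. The near-even split of the calls and the median near 0 thus depend in part on the TMM scaling. Of the uncalled genes with a symbol, 27 did not keep their sign in every alternative. Examples whose sign changed when libraries were left out were PLAT (-0.70 to 0.96), MMP1 (-0.19 to 2.07), CD14 (-0.84 to 0.65), NOS2 (-5.28 to 1.93) and SLAMF8 (-1.61 to 0.22). The cause was not tested. SLC5A1, TEK and IL37, which had few counts, lost their calls in 7, 6 and 2 of the 9 fits that left out libraries.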
